A study of Homo sapiens with 6 samples.

Results

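The Notch pathway genes described here are 10 genes chosen by symbol: the receptors NOTCH1, NOTCH2 and NOTCH3, the ligands JAG1, JAG2 and DLL1, the receptor-modifying enzyme LFNG, and the targets HES1, HES4 and HEY1. They were taken from 19775 genes that have a probe set of their own on the array, and they carry 26 probe sets.

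Notch receptors are cut at the cell surface after a Jagged or Delta ligand on a neighbouring cell binds them. The freed intracellular part enters the nucleus, joins the DNA-binding protein RBPJ and a Mastermind coactivator, and turns on genes of the HES and HEY families, which encode repressors. In squamous epithelium Notch signalling is known for its role in differentiation, and HES and HEY genes are also known to answer to other inputs, TGF-β among them.

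The samples were 6 arrays of SAS, an established line from an oral squamous cell carcinoma. One array came from cells given siRNA against CYLD, a deubiquitinase, and then ALK5 inhibitor (siCYLD with inhibitor), and one from cells given control siRNA and the inhibitor (siCtrl with inhibitor). A pair of arrays came from siCYLD cells and another pair from siCtrl cells that did not get the inhibitor and are called untreated. Per the labels' protocols the alternative to the inhibitor was DMSO, and the cells were cultured for 2 days after transfection and then kept for 48 h with either in serum-free medium. ALK5 is the type I receptor for TGF-β. The inhibitor's name and dose, the siRNA sequences and any rescue are not given in the sources used here, and a single siRNA product against CYLD is named. The labels do not say whether the duplicates were separate cultures, so the p-values speak to array-to-array spread alone, and that spread may be technical.

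Each probe set's value was a MAS5 signal, an intensity whose 2% trimmed mean came out at 500.1 on every array. Probe sets differ in brightness for the same amount of RNA, so levels are compared only within a probe set. Arrays have no read depth, and their small number limits the precision. The title and the source name disagreed for siCYLD replicate 1 and siCtrl replicate 2, and groups follow the titles. By title the duplicates correlated at 0.975 (siCYLD) and 0.976 (siCtrl), and untreated arrays of opposite siRNA at 0.967 to 0.968. CYLD itself read 278 and 230.4 in untreated siCYLD cells, against 411 and 499.5 in untreated siCtrl cells, and 176 in siCYLD against 349 in siCtrl cells with inhibitor. Its log2 difference without inhibitor was −0.80 ± 0.18 (SE, limma adjusted p = 0.0065), and −0.66 (adjusted p = 0.059) without siCtrl replicate 2. The other 3 CYLD probe sets above the filter on dim signals were also lower, by log2 differences of −2.21, −1.24 and −0.70 (limma adjusted p = 3e-05, 0.00077 and 0.041 among all probe sets). Epithelial markers were high on all 6 arrays, with summed signals of KRT8, KRT18, KRT19 and EPCAM between 72486 and 81436, and so were CDH1 (11742 to 15156) and SFN (16441 to 20611), while KRT14 and PKP1 were at 148 or less and 45.5 or less. Fibroblast markers summed to between 697 and 894, leukocyte markers to between 251 and 412, and endothelial markers to between 238 and 389.

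The promoters of HES1 and HES4 are shown because these were the members whose 300 bases around the start site (250 before, 50 after) held the RBPJ motif GTGGGAA, searched on both strands. The sequences are RefSeq's, build GRCh38.p14, on the gene's strand, with the motif in capitals. HES1 lies at chr3:194135898-194136197 on the plus strand and HES4 at chr1:1000048-1000347 on the minus strand.
HES1: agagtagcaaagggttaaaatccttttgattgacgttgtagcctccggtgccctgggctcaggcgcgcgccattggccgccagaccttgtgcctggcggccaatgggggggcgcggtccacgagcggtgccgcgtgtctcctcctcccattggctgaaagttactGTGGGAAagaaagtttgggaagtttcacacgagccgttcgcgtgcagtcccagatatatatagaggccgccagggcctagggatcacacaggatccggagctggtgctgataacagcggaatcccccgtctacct
HES4: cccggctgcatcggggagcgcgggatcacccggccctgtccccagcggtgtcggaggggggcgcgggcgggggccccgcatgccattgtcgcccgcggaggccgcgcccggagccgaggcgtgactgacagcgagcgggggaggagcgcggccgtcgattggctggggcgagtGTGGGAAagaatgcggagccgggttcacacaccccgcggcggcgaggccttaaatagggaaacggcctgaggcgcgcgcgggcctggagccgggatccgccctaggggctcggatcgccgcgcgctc
The match begins at −85 in HES1 and −77 in HES4, and both genes share the 12 bases tGTGGGAAagaa there. Of the 8 members with an entry in the promoter table the other 6 held no match, and DLL1 and HEY1 had no entry. The motif occurs in 6.28% of 27305 promoters of the same length, and the shared stretch in 7 of them. Of 14 other genes, a list of HES and HEY genes, Notch feedback genes and BHLHE and ID genes, 3 held the motif (HES5, HEY2 and HEYL). A match is a description of the letters, not a measured binding site. The short SMAD motif GTCTG was in 3 of the 8 (1 match in JAG1, 1 in HES1 and 2 in LFNG), against 45% of all promoters. The palindrome GTCTAGAC of SMAD proteins and the AP-1 motif TGANTCA were in none of the 8, against 0.201% and 7.76% of all promoters.

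Without inhibitor, 5 of the 10 members rose in siCYLD cells (NOTCH1, NOTCH2, NOTCH3, JAG1 and HES4) and 0 fell, by limma at an adjusted p below 0.05 over the 12935 genes tested. Over all genes 9.49% were called higher and 11.8% lower in this comparison. The members were chosen with earlier results of these data known, so their counts are a description and not a test of the set. The members' median log2 difference was 0.26, beside −0.04 over all genes. Without both arrays whose labels conflict, an additive model called 0 of the 10, with log2 differences of 0.14 for NOTCH1, 0.36 for NOTCH2, 0.47 for NOTCH3, 0.22 for JAG1 and 0.57 for HES4 (adjusted p = 0.063 to 0.74). With inhibitor against untreated, over both siRNAs together, 4 members rose (JAG1, JAG2, DLL1 and HES4) and 2 fell (NOTCH3 and HEY1), where 11.2% of all genes were called higher and 8.82% lower. Their median was 0.07, beside 0.01 over all genes. HES1 and LFNG were called in neither comparison. Both comparisons use the untreated arrays, so they are not independent of each other. Log2 differences are on the scale of log2(signal + 16.1), which understates the change of dim probe sets.

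**Figure D1:**
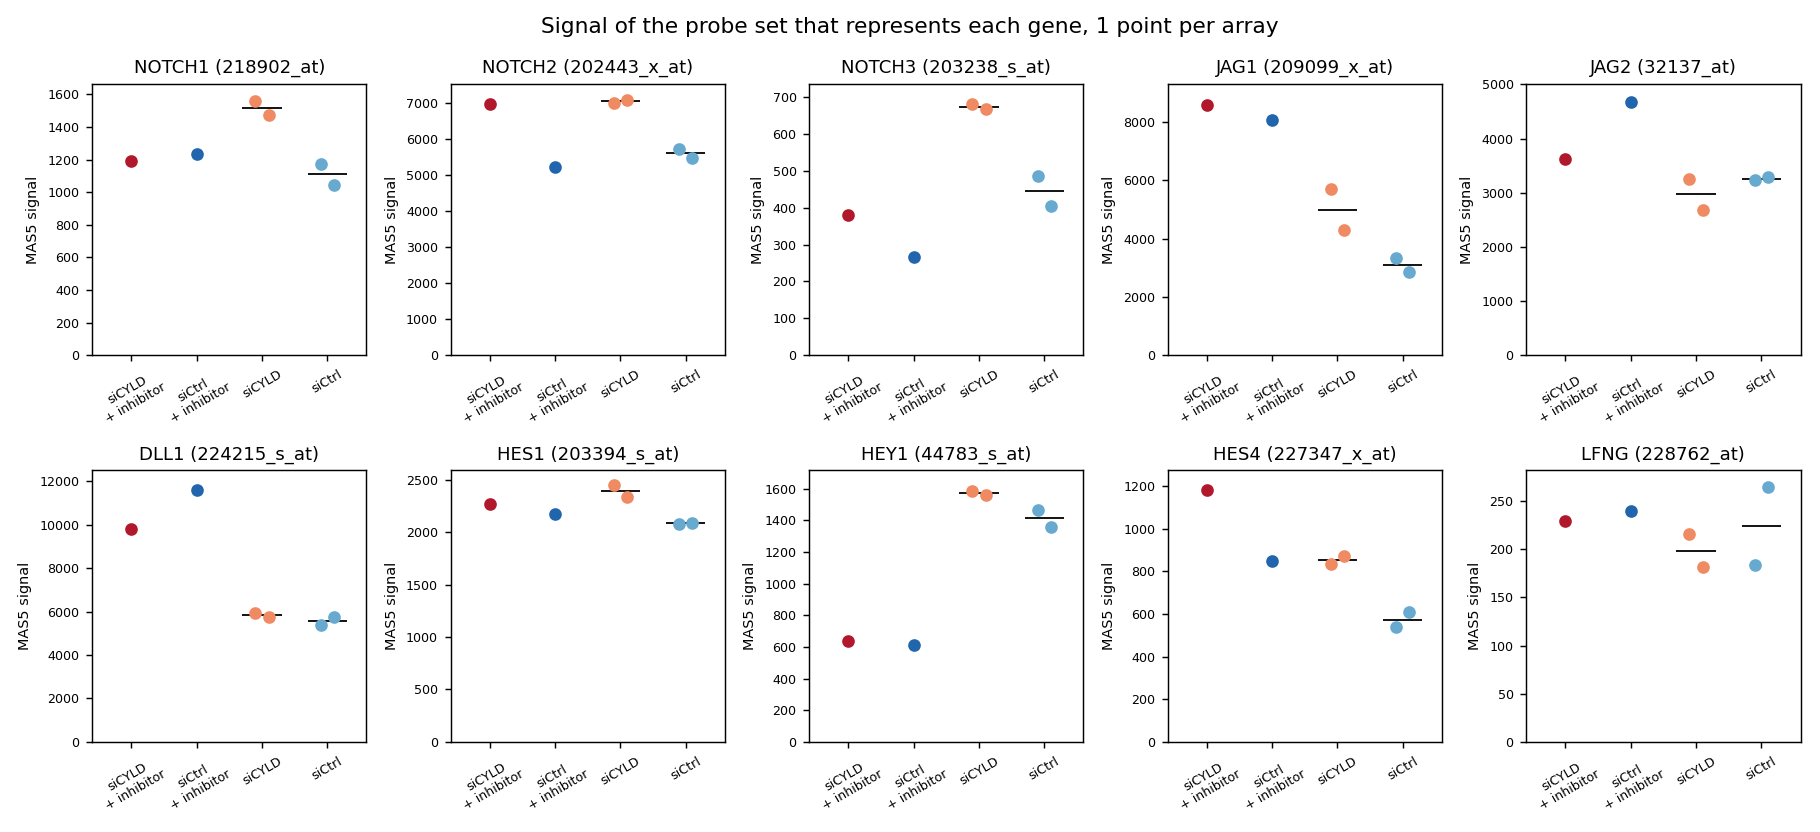
MAS5 signal (linear axis from 0) of the 10 Notch genes, 1 point for each of the 6 arrays and one panel a gene, with a line at the mean of each untreated pair; groups run from left to right siCYLD with inhibitor, siCtrl with inhibitor, untreated siCYLD and untreated siCtrl. Both inhibitor arrays of HEY1, at 635 and 611, lie below all 4 untreated arrays, and those of JAG1, at 8591 and 8056, lie above them.

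**Figure D2:**
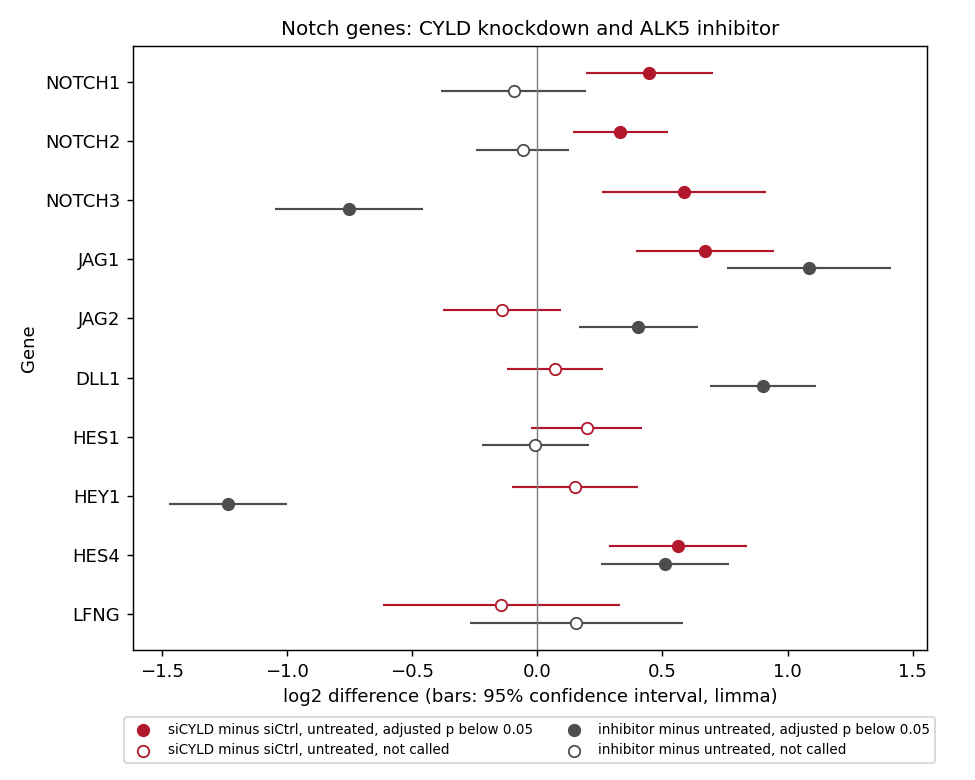
Log2 difference of each Notch gene with its 95% confidence interval from limma, for untreated siCYLD minus siCtrl and for inhibitor minus untreated; filled points passed an adjusted p below 0.05. JAG1 and HES4 are filled on the right side of 0 in both, and NOTCH3 is filled at 0.59 in the one and −0.75 in the other.

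All 3 receptors among the members rose in untreated siCYLD cells. NOTCH4, a dim receptor outside the members, did not differ detectably between the siRNAs (−0.35, limma adjusted p = 0.44). NOTCH1, the receptor best known in squamous epithelium, read 1561 and 1472 in untreated siCYLD cells, against 1173 and 1045 in untreated siCtrl cells. The pairs did not overlap, and the log2 difference was 0.45 ± 0.12 (SE, limma adjusted p = 0.016). With inhibitor NOTCH1 read 1191 in siCYLD and 1235 in siCtrl cells, both just above the untreated siCtrl pair and below the untreated siCYLD pair. Its difference with inhibitor over both siRNAs was −0.09 (95% interval −0.38 to 0.20), and the siCYLD minus siCtrl difference under the inhibitor was −0.05, from 1 array each. In bulk RNA, fewer cells of a kind and less RNA per cell cannot be told apart. The call of NOTCH1 was lost without siCYLD replicate 1 (0.41, adjusted p = 0.074) and without siCtrl replicate 2 (0.36, adjusted p = 0.085). A second NOTCH1 probe set was dim, at 95.9 in siCYLD and 43.9 in siCtrl cells with inhibitor against 31.4 to 54.9 on the untreated arrays. It passed the filter on dim signals only through the siCYLD array with inhibitor. Without inhibitor it did not differ detectably between the siRNAs (−0.10, limma adjusted p = 0.91 among all probe sets).

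NOTCH2, a second receptor for the same ligands, read 6999 and 7073 in untreated siCYLD cells, against 5705 and 5475 in untreated siCtrl cells, a log2 difference of 0.33 ± 0.09 (SE, limma adjusted p = 0.017). It read 6965 in siCYLD and 5203 in siCtrl cells with inhibitor, so the siCYLD arrays were above the siCtrl arrays in both conditions, by 0.42 under inhibitor. The inhibitor difference was −0.06 (95% interval −0.24 to 0.13). Of its 4 probe sets, 3 rose in untreated siCYLD cells when each was tested on its own, where 7.70% of all probe sets were called higher. Some probes may also read the NOTCH2NL genes, near-copies of NOTCH2, so its level is uncertain in that respect. The NOTCH2 call was lost without siCYLD replicate 1 (0.34, adjusted p = 0.063), without siCYLD replicate 2 (0.32, 0.084) and without siCtrl replicate 2 (0.30, 0.059).

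NOTCH3 was the receptor called in both comparisons. It read 681 and 668 in untreated siCYLD cells, against 487 and 405 in untreated siCtrl cells, and 379.8 in siCYLD and 266 in siCtrl cells with inhibitor. All 3 siCYLD readings were above the siCtrl reading of the same treatment, and each inhibitor array was below the untreated arrays of its siRNA. The log2 difference was 0.59 ± 0.15 (SE, limma adjusted p = 0.014) for untreated siCYLD minus siCtrl, and −0.75 ± 0.13 (SE, limma adjusted p = 0.0036) for the inhibitor. The knockdown call was lost without siCtrl replicate 2 (0.46, adjusted p = 0.1). A second NOTCH3 probe set, at 18.9 to 53.7, did not pass the filter on dim signals.

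JAG1, a Jagged ligand, was higher in untreated siCYLD cells and higher again with inhibitor. It read 5688 and 4288 in untreated siCYLD cells, against 3345 and 2866 in untreated siCtrl cells, and 8591 in siCYLD and 8056 in siCtrl cells with inhibitor. Both inhibitor arrays stood above all untreated arrays. They differed from each other by only 0.09 on the log2 scale, but by 0.23 to 0.61 in the other probe sets above the filter. The log2 difference was 0.67 ± 0.13 (SE, limma adjusted p = 0.0022) for untreated siCYLD minus siCtrl, and 1.09 ± 0.15 (SE, limma adjusted p = 0.00087) for the inhibitor. All 4 probe sets that passed the filter rose with inhibitor, by 0.998 to 1.12, where 7.79% of all probe sets were called higher. In untreated siCYLD cells 2 of the 4 rose, and the dimmest, at 192 and 164 in siCYLD cells against 166 and 167 in siCtrl cells, differed by 0.08 (adjusted p = 0.81). The 0.67 is the highest of the 4 values, and the mean of the probe sets gave 0.38 (adjusted p = 0.049).

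JAG2, the other Jagged ligand, read 3251 and 2685 in untreated siCYLD cells, against 3233 and 3289 in untreated siCtrl cells, and the groups overlapped. Its log2 difference was −0.14 (95% interval −0.38 to 0.09), while its other probe set fell by 0.37 in untreated siCYLD cells (limma adjusted p = 0.032 among all probe sets, 9.06% of which were called lower). With inhibitor JAG2 read 3616 in siCYLD and 4675 in siCtrl cells, above the untreated arrays of the same siRNA. The inhibitor difference was 0.40 ± 0.11 (SE, limma adjusted p = 0.025). This call was lost when siCtrl replicate 1, siCtrl replicate 2, siCYLD replicate 2 or the siCtrl array with inhibitor was left out (0.29 to 0.39, adjusted p = 0.06 to 0.14).

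DLL1, a Delta ligand, did not differ detectably between the siRNAs and rose with inhibitor. It read 9799 in siCYLD and 11603.5 in siCtrl cells with inhibitor, against 5932 and 5762 in untreated siCYLD and 5383 and 5753 in untreated siCtrl cells. The inhibitor difference was 0.90 ± 0.10 (SE, limma adjusted p = 0.00023), and it passed the threshold within each siRNA, at 0.74 in siCYLD and 1.06 in siCtrl cells. For untreated siCYLD minus siCtrl it was 0.07 (95% interval −0.12 to 0.26).

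LFNG, the fringe enzyme that adds a sugar to Notch receptors and so shifts their choice of ligand, was dim. It read 216 and 181 in untreated siCYLD cells, against 183 and 264 in untreated siCtrl cells, and 229 in siCYLD and 239 in siCtrl cells with inhibitor. The groups overlapped, and the intervals were wide: −0.62 to 0.33 for untreated siCYLD minus siCtrl and −0.27 to 0.58 for the inhibitor.

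The targets did not move together. HEY1, a Hairy-related repressor, read 635 in siCYLD and 611 in siCtrl cells with inhibitor, against 1585 and 1557 in untreated siCYLD and 1466 and 1359 in untreated siCtrl cells. It fell by 1.24 ± 0.11 on the log2 scale (SE, limma adjusted p = 6.1e-05), the members' largest inhibitor difference in size, and both of its probe sets fell, where 7.45% of all probe sets were called lower. For untreated siCYLD minus siCtrl its difference was 0.15 (95% interval −0.10 to 0.40). The HEY1 call held under all 20 alternative settings run for the inhibitor comparison.

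HES1, the best-known Notch target of the HES family, read 2271 in siCYLD and 2173 in siCtrl cells with inhibitor, against 2447 and 2338 in untreated siCYLD and 2080.4 and 2089 in untreated siCtrl cells. The untreated siCYLD pair lay above the siCtrl pair, but the difference of 0.20 did not pass (95% interval −0.02 to 0.42, limma adjusted p = 0.196). Its inhibitor difference was −0.01 (95% interval −0.22 to 0.21). Its other bright probe set, at 966 in siCYLD cells with inhibitor against 1457 and 1319 in untreated siCYLD cells, fell by 0.51 within siCYLD cells (limma adjusted p = 0.03 among all probe sets, 7.98% of which were called lower there).

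HES4, a further HES repressor, rose in both comparisons. It read 1181 in siCYLD and 849.7 in siCtrl cells with inhibitor, against 833 and 872 in untreated siCYLD and 539 and 607 in untreated siCtrl cells. The siCYLD arrays were above the siCtrl arrays under both conditions. The log2 difference was 0.56 ± 0.13 (SE, limma adjusted p = 0.007) for untreated siCYLD minus siCtrl, and 0.51 ± 0.12 (SE, limma adjusted p = 0.012) for the inhibitor. HES4 has 1 probe set, of a type that can match other transcripts.

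**Figure D3:**
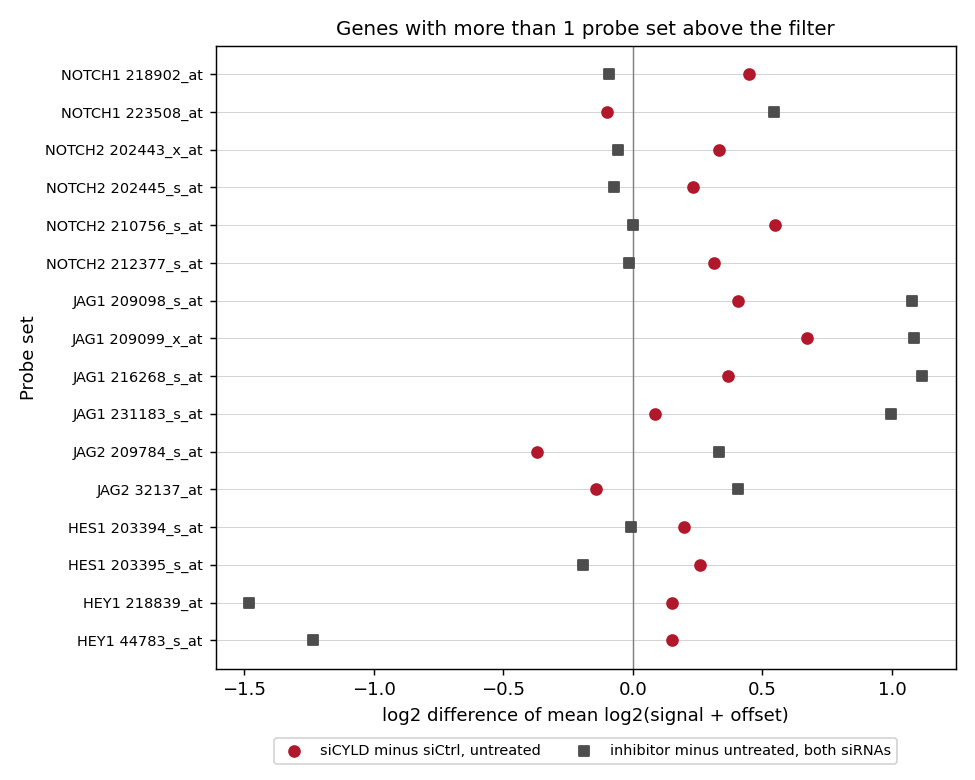
Log2 difference of each probe set of the genes with more than 1 probe set above the filter, for untreated siCYLD minus siCtrl and for inhibitor minus untreated. The 4 JAG1 probe sets lie between 0.998 and 1.12 with inhibitor, and the HEY1 probe sets lie at −1.24 and −1.48 (squares, inhibitor; circles, siRNA). The dim NOTCH1 probe set passed the filter only through the siCYLD array with inhibitor.

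Within each siRNA the inhibitor arrays, 1 for each, were assumed to vary like the duplicates. In siCYLD cells 3 members rose and 2 fell, where 12.2% of all genes were called higher and 10.2% lower. In siCtrl cells 4 rose and 2 fell, where 5.02% and 4.34% were. HEY1 fell by 1.28 in siCYLD and by 1.19 in siCtrl cells, and NOTCH3 by 0.80 and by 0.70. JAG1 rose by 0.80 in siCYLD and by 1.37 in siCtrl cells. HES4 was near the threshold in both (adjusted p = 0.0499 in siCYLD and 0.042 in siCtrl cells) and lost the call in siCYLD cells without siCYLD replicate 1 or 2 (0.43 to 0.50, adjusted p = 0.079 to 0.13) and in siCtrl cells without siCtrl replicate 1 (0.47, adjusted p = 0.12), where NOTCH3 also lost it (−0.58, adjusted p = 0.12).

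The difference between these effects was tested as an interaction, and 0 of the 10 members passed in limma, where 1.67% of all genes did. At an unadjusted p below 0.05 there were 2, JAG1 (−0.58, adjusted p = 0.25) and NOTCH1 (−0.50, adjusted p = 0.29). Over all genes 1767 of the 12935 tested were below it. The JAG1 value is that of its representing probe set, and its other probe sets above the filter showed no gap of that size. Without siCYLD replicate 2, JAG1 passed (−0.78, adjusted p = 0.012). Under the inhibitor, with 1 array each, no member differed between siCYLD and siCtrl by 2-fold on its representing probe set, as 6.73% of all genes did. HES4 was higher in siCYLD by 0.47, NOTCH3 by 0.49 and NOTCH2 by 0.42. JAG2 and DLL1 were at −0.37 and −0.24, and the other 5 lay between −0.06 and 0.09. Further probe sets of these 5 above the filter differed more: −0.38 for HES1, −0.27 for HEY1, 0.23 to 0.61 for JAG1 and 0.90 for the dim one of NOTCH1. That NOTCH1 probe set passed the filter (signal 79.3) only through the siCYLD array with inhibitor, so its 0.90 is uncertain.

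**Figure D4:**
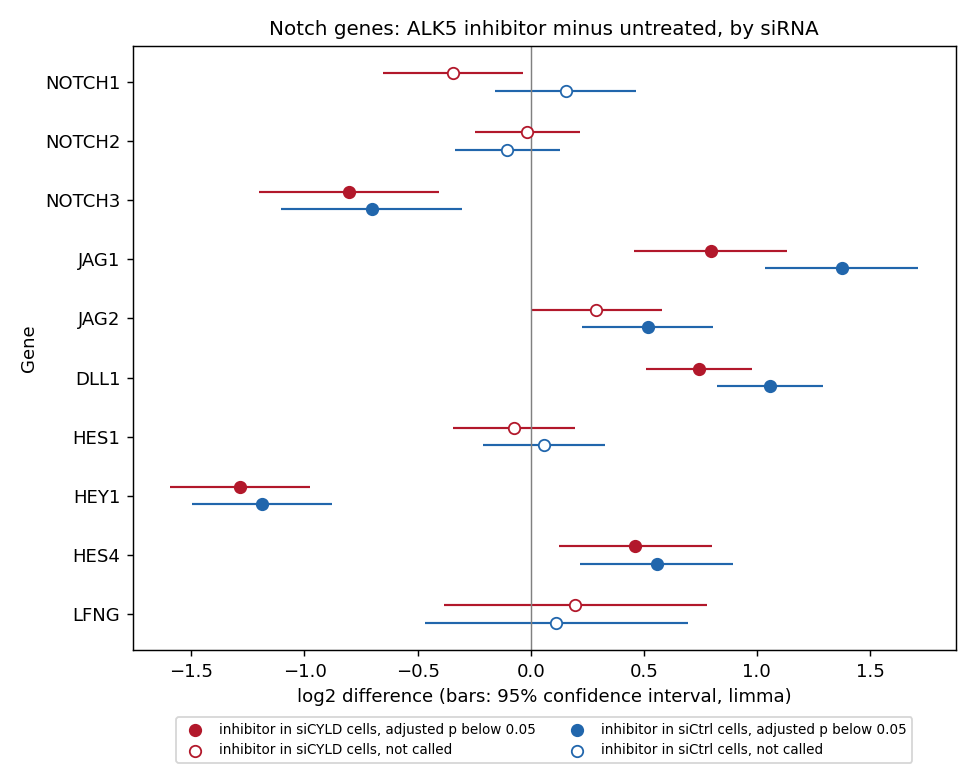
Log2 difference of inhibitor minus untreated for each Notch gene in siCYLD cells (upper point) and siCtrl cells (lower point), with 95% confidence intervals from limma; filled points passed an adjusted p below 0.05. HEY1 lies at −1.28 and −1.19, and JAG1 at 0.80 and 1.37.

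Some other measures moved with the siRNA or the inhibitor. The ratio of the 3′ to the 5′ ACTB probe sets was 2.26 to 2.48 on the 3 siCYLD arrays and 3.21 to 3.67 on the 3 siCtrl arrays, and the median log2 signal of poly-A spikes was 9.63 to 9.90 and 9.47 to 9.54. The same ratio for GAPDH did not separate the siRNAs, at 1.80 to 1.97 on the siCYLD and 1.79 to 2.14 on the siCtrl arrays. All 16 proliferation genes tested fell in untreated siCYLD cells (median −1.62), and 14 of 16 rose with inhibitor (median 1.15). KRT5, a keratin of basal squamous cells, moved with the inhibitor, reading 5595 in siCYLD and 12525 in siCtrl cells with inhibitor, against 900.5 and 968 in untreated siCYLD and 1094 and 1245 in untreated siCtrl cells (log2 difference 2.98, limma adjusted p = 5.2e-06 among all probe sets). The summed squamous markers were 35580 in siCYLD and 48058 in siCtrl cells with inhibitor, against 35042 to 36210 on the untreated arrays. The part of these measures in the members' differences was not tested.

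The rest of the pathway was followed through lists of its genes. For this and the following lists, the shares over all genes are the ones to set beside the counts. These were 9.49% called higher and 11.8% lower in untreated siCYLD cells, and 11.2% higher and 8.82% lower with inhibitor. Among receptors and ligands outside the 10, 3 passed the filter on dim signals, with medians of −0.55 between the siRNAs and 0.45 with inhibitor. The −0.55 is the value of DLL3, which passed (signal 79.3) only through the siCYLD array with inhibitor, at 87.3. DLL3 read 44.7 and 36.4 in untreated siCYLD cells, against 77.2 and 57.6 in untreated siCtrl cells, so that median is uncertain. DLK2, a non-canonical ligand, fell by 0.60 in untreated siCYLD cells and rose by 0.45 with inhibitor. Its inhibitor rise was 0.28 to 0.43 and not called in 4 of the 6 leave-outs. Of 7 receptor glycosylation genes, MFNG, another fringe enzyme, fell in untreated siCYLD cells, to 284 and 301 against 552 and 504 in untreated siCtrl cells (log2 difference −0.82), and 0 were called with inhibitor (lists' medians −0.12 and 0.07). Of 8 genes of receptor and ligand cleavage, 0 were called between the siRNAs, and FURIN, a convertase that processes the receptors, fell by 0.71 with inhibitor (medians −0.13 and −0.14).

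Of 15 trafficking and turnover genes, 3 rose in untreated siCYLD cells (DTX3L by 0.37, AAK1 by 0.34 and MIB1 by 0.31) and 4 fell (NEURL1B by 0.72, ITCH by 0.53, DTX3 by 0.38 and DTX4 by 0.37). MIB1 and NEURL1B are ubiquitin ligases for the ligands. With inhibitor AAK1, an endocytic kinase, fell by 0.90 (medians −0.06 and −0.02). Without probe sets ending in _x_at and _s_at ITCH stood at −0.02. Of 16 genes of the nuclear complex and its co-repressors, 3 rose in untreated siCYLD cells (MAML3 by 0.95, TLE2 by 0.89 and SPEN by 0.38) and 2 fell (MAML2 by 0.48 and TLE1 by 0.46). With inhibitor KAT2A rose by 0.69 and MAML3 by 0.59, while EP300 fell by 0.67, KAT2B by 0.60, MAML2 by 0.52, CREBBP by 0.49 and RBPJ by 0.33. MAML2 and MAML3 are Mastermind coactivators, and they moved in opposite directions in each comparison (list medians −0.09 and −0.17). The knockdown calls of AAK1, MIB1, SPEN, DTX3, DTX3L and DTX4 were each lost when 1 of the arrays was left out (0.26 to 0.35, 0.22 to 0.25, 0.22 to 0.34, −0.35 to −0.30, 0.29, and −0.32 to −0.30). RBPJ lost its inhibitor call whichever array was left out (−0.36 to −0.30), as did KAT2B (−0.53) without siCYLD replicate 2 or the siCYLD array with inhibitor, and MAML3 (0.59) and FURIN (−0.41) without that inhibitor array.

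A further list joined other HES and HEY genes and Notch feedback genes with BHLHE and ID genes. Of its 10 tested genes, 2 rose in untreated siCYLD cells, both of them BHLHE genes, and 0 fell. BHLHE40, a repressor of the same protein class, read 9803 and 9320 in untreated siCYLD cells, against 5224 and 4175 in untreated siCtrl cells, a log2 difference of 1.03, and BHLHE41 rose by 0.28 (list medians 0.29 and, with inhibitor, 0.22). NRARP, a feedback inhibitor induced by Notch, differed by 0.31 (adjusted p = 0.0504). With inhibitor ID1 rose by 0.69 and BHLHE41 by 0.63, and BHLHE40 fell by 0.56. HES2 and ID2 were also called, higher and lower, but each passed the filter (signal 79.3) only through the groups where it was high, so the sizes of their differences are uncertain. HES2 read 171 in siCYLD and 173 in siCtrl cells with inhibitor, against 6.56 to 71.9 untreated, and its call was lost in 3 of the 6 leave-outs. ID2 read 76.2 in siCYLD and 69.1 in siCtrl cells with inhibitor, against 169 to 247 untreated. Left-out arrays also ended the calls of BHLHE41 in untreated siCYLD cells (0.23 to 0.32) and with inhibitor (0.28), and of BHLHE40 with inhibitor (−0.54 to −0.20).

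Of 10 other genes reported to answer to Notch in epithelia, 4 rose in untreated siCYLD cells and 0 fell: NFKB2 by 1.10, SOX9 by 1.08, CDKN1A by 0.62 and EPHB4 by 0.46. SOX9, a transcription factor, read 4875 and 4577 in untreated siCYLD cells, against 2230 and 2207 in untreated siCtrl cells. With inhibitor CDKN1A, a cell cycle inhibitor, fell by 1.201 and SOX9 by 0.51, and MYC rose by 0.26. The EPHB4 call was lost without siCYLD replicate 1 (0.33), and the MYC call when any array but the siCtrl array with inhibitor was left out (0.16 to 0.28). The median log2 difference of this list was 0.35 for untreated siCYLD minus siCtrl and 0.25 with inhibitor.

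**Figure D5:**
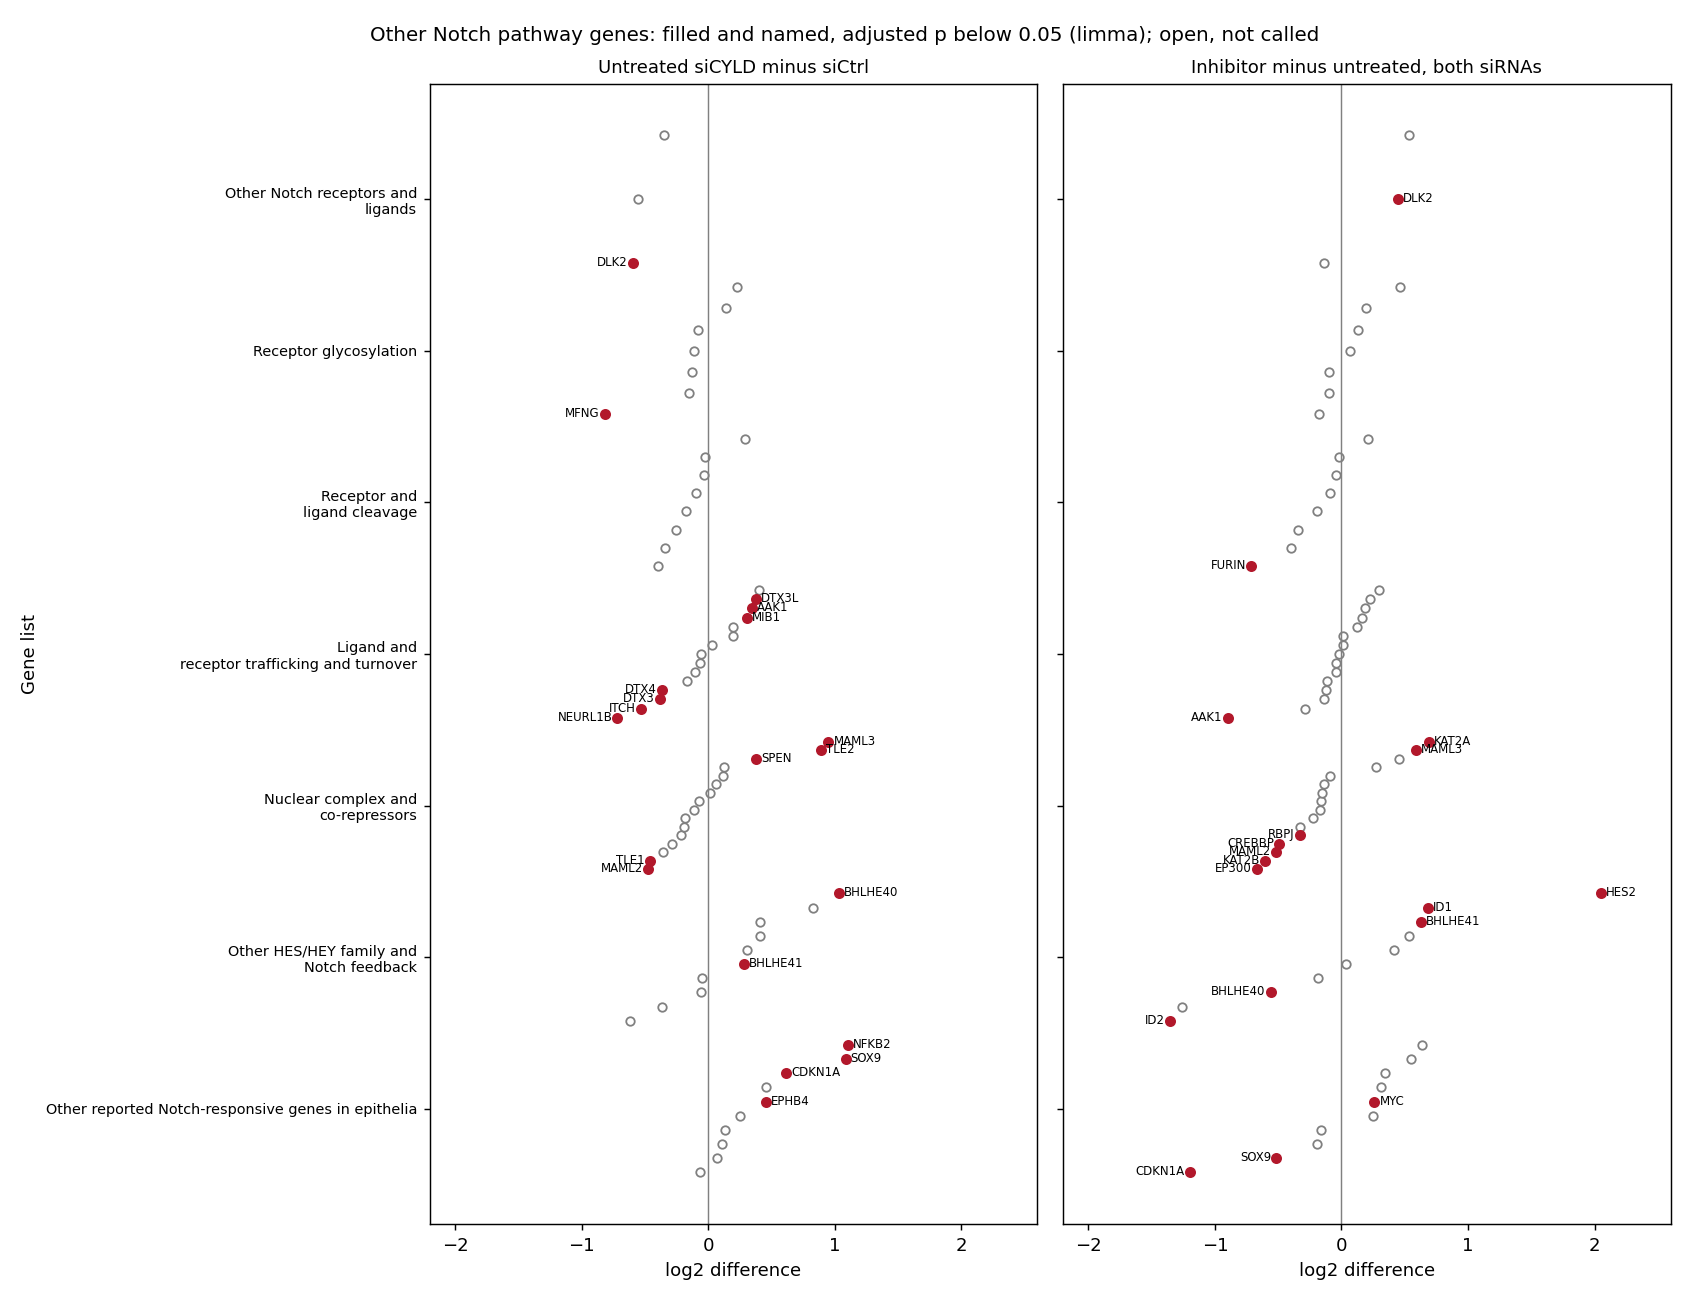
Log2 difference of each tested gene of the other Notch pathway lists (rows), for untreated siCYLD minus siCtrl and for inhibitor minus untreated; filled, named points passed an adjusted p below 0.05. SOX9, NFKB2 and BHLHE40 lie above 1 on the left, and CDKN1A lies at −1.201 on the right; HES2 and ID2 passed the filter on dim signals only through the groups where they were high.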

How the data were processed

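RNA from 6 samples of SAS cells was read on Affymetrix arrays with 54675 probe sets. The deposited intensities are MAS5 signals, per the submitters' processing notes, which give no version. Signals were used as deposited, as log2(signal + 16.1), the offset being their 20th percentile. Gene names came from the platform annotation: 41091 probe sets have 1 symbol, 1801 several and 11721 none, apart from 62 controls. Probe sets with 1 symbol whose highest group mean exceeded the median of all values (signal 79.3) were kept, and each gene was represented by the kept probe set with the highest mean (12935 genes).

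limma 3.58.1 in R 4.3.3 (lmFit, eBayes with trend) was fitted on all genes, two-sided, with Benjamini-Hochberg adjustment. The siRNA comparison, the interaction and the inhibitor within an siRNA used 4 group means (2 residual degrees of freedom). The inhibitor over both siRNAs used an additive model (3). The fits were tested on simulated data. The members and lists were chosen with earlier results of these data known. Named genes are CYLD, the members and, per list, the called genes with the 3 largest rises and falls. DTX4, CREBBP, RBPJ, EPHB4, NRARP, SNAI2, KRT5, DLL3 and NOTCH4 fall outside this rule and were chosen after their values were seen. Alternatives covered offset, filter, scaling, moderation, probe set choice, model, labels and each array left out.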

Additional observations from a re-analysis of the deposited data

Results flagged for a closer look

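In 3 other genes the inhibitor's effect differed between the siRNAs by the limma interaction test. They were 2 of the 10 reported to answer to Notch and 1 of the 10 in the list with HES, BHLHE and ID genes. In the other Notch pathway lists 0 passed. Over all genes 1.67% passed, and of the 16 proliferation genes 8 did. SNAI2, a transcription factor, differed by −1.14 on the log2 scale (adjusted p = 0.0049): it read 2498 in siCYLD cells with inhibitor, against 2594 and 2487 in untreated siCYLD cells, and 4653 in siCtrl cells with inhibitor, against 2144 and 2119 in untreated siCtrl cells. CDKN1A differed by −0.94 (adjusted p = 0.0095), with inhibitor differences of −1.67 in siCYLD and −0.73 in siCtrl cells. BHLHE41 differed by 0.69 (adjusted p = 0.037), with inhibitor differences of 0.97 in siCYLD and 0.28 in siCtrl cells. All 3 calls were lost without the intensity trend (adjusted p = 0.18 for SNAI2, 0.25 for CDKN1A and 0.32 for BHLHE41). Of the alternative settings run, SNAI2 kept its call in 15 of 16, CDKN1A in 13 of 15 and BHLHE41 in only 10 of 15.

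A probe set that matches NOTCH2 and the NOTCH2NL genes, and so entered no comparison, read 3143 and 3094 in untreated siCYLD cells, against 2788 and 2753 in untreated siCtrl cells. That is a log2 difference of 0.17, which was not tested.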

How the results depend on the processing

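For the 10 members, 199 of 224 alternative values of the siRNA comparison and 183 of 194 of the inhibitor comparison stayed on the same side of the threshold without a called value changing sign, and 10 and 7 values, called or not, changed sign. The number of members called in the siRNA comparison, 5, was 0 without the intensity trend and 2 to 5 with 1 array left out. It was 0 in the additive model without both arrays of conflicting labels, where JAG1 stood at 0.22 and HES4 at 0.57 (adjusted p = 0.47 and 0.063). NOTCH1 also lost its call with the mean of its probe sets (0.17) and in the additive model (0.28), NOTCH2 with median centring (adjusted p = 0.051) and NOTCH3 without the filter (adjusted p = 0.055). The NOTCH1 mean takes in its dim probe set, which passed the filter only through the siCYLD array with inhibitor. With the inhibitor, 6 became 2 without the siRNA term and 5 to 6 with 1 array left out. The interaction's 0 became 1 without siCYLD replicate 2 and was 0 to 1 with 1 array left out. In siCYLD cells 5 became 2 without the trend and 4 to 5 with 1 array left out. In siCtrl cells 6 became 3 without the filter, 0 without the trend and 4 to 6 with 1 array left out. When _x_at and _s_at probe sets were left out, only 4 members (NOTCH1, JAG2, HEY1 and LFNG) could be tested: 1 was called for the siRNA, 2 with the inhibitor, 1 in siCYLD and 2 in siCtrl cells, and 0 of the called members still tested lost the call.

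With groups taken from the source names, 0 members were called. Each such group joins 1 siCYLD-titled and 1 siCtrl-titled array, so a difference between titles cancels. The siRNA difference then changed sign for NOTCH1 (−0.12), NOTCH2 (−0.0219), NOTCH3 (−0.14), JAG1 (−0.31), HES1 (−0.0299), HEY1 (−0.0671), LFNG (0.13), AAK1 (−0.0933), BHLHE40 (−0.20), BHLHE41 (−0.0825), DTX3L (−0.0805), EPHB4 (−0.0659), NFKB2 (−0.40), SOX9 (−0.0527), SPEN (−0.13), TLE2 (−0.33), CYLD (0.00799), DTX3 (0.0459), ITCH (0.039), MAML2 (0.000326), NEURL1B (0.033) and TLE1 (0.0203).

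Over all genes, the siRNA comparison called 2757, and 1219 without the trend, 943 in the additive model without the arrays of conflicting labels and 0 by source name. The inhibitor called 2586, and 1087 without the trend, 210 without the siRNA term, 1241 without those arrays, and 1266 without the siCYLD inhibitor array. The interaction called 216, and 33 without the filter, 135 with median centring, 0 without the trend, 95 with the mean of probe sets, 134 without _x_at and _s_at probe sets, and up to 459 with 1 array left out. In siCYLD cells 2900 became 1819 without the filter and 1055 without the trend, and in siCtrl cells 1211 became 478 and 35. The replicate numbers did not pair the arrays (correlation of deviations 0.045); with the replicate block 5 members and 3714 genes were called. The causes of these changes were not tested beyond what is stated.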

Other observations

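For the 5 members whose group means spanned at least 1 log2 unit, the genes with the closest profile over the 6 arrays are given as a description, by the distance between centred log2 values. NOTCH3 was closest to GRIN2D (distance 0.156, Pearson r = 0.991), followed by GDPD5 and ELK3. JAG1 was closest to FZD4, a Frizzled receptor (0.329, r = 0.974), followed by EFCAB3 and LRP8. DLL1 was closest to EARS2 (0.124, r = 0.996), followed by CACHD1 and NTHL1. HEY1 was closest to CIITA (0.255, r = 0.988), followed by TNRC6C-AS1 and TTC39A. HES4 was closest to CREB5 (0.0957, r = 0.995), followed by ST6GALNAC4 and KLK8. The 6 arrays fall into 4 groups, so the points are not independent.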
